A study of Mus musculus with 8 samples.

Results

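The inflammasome genes described here were 9 genes of a known pathway, listed by name with earlier results of these data known: the sensors Nlrp3, Aim2, Nlrc4 and Naip2, the adaptor Pycard, the caspases Casp1 and Casp4, the pore-forming protein Gsdmd and the cytokine Il18. All 9 were present among the 54532 genes listed for the PTS + RS and RS groups and among the 28229 genes listed for the RGFP109 and vehicle groups. All 9 also passed the filter on low counts in both comparisons.

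RNA-seq counts were available for 8 brain libraries of male C57BL/6 mice taken on Day 21, with 2 libraries in each of 4 groups; the age of the mice was not stated in the labels. The RS mice were restrained daily and had no stroke. The PTS + RS mice were restrained in the same way and also had a photothrombotic stroke, a cortical infarct made by illuminating the skull after injection of the dye Rose Bengal. RGFP109 inhibits histone deacetylase 3 (HDAC3), and by the account of the study it acts on HDAC1 as well. The RGFP109 and vehicle mice were all PTS + RS mice. They were given either RGFP109 at 60 mg/kg subcutaneously once per day for 2 weeks, or the control injection that the labels call NaCl. All 8 libraries therefore came from restrained mice, and the RGFP109 comparison had no group without a stroke. The tissue label was cortex for 6 libraries and amygdala for replicate 2 of the RGFP109 group and replicate 2 of the vehicle group. No label states that the libraries of a group came from separate mice, so that the p-values below measure the spread between these libraries, which may be technical.

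The libraries held between 15902013 and 21712033 counts on genes. Vehicle replicate 1, labelled cortex, stood apart with 1452 CPM (counts per 1000000 counts of the normalized library) summed over 10 olfactory bulb markers, against 30.3 to 57.0 in the RGFP109 libraries and vehicle replicate 2. The 2 libraries labelled amygdala had 1373 and 1514 CPM over 10 striatum markers, against 214 and 257 in the cortex-labelled libraries of the same groups, while their 282 and 285 CPM over 10 amygdala markers were close to the 281 of RGFP109 replicate 1 and below the 746 of vehicle replicate 1. Choroid plexus markers also varied within groups, at 1636 and 47.6 CPM in the PTS + RS libraries and 1850 and 3858 CPM in the RS libraries.

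An inflammasome is a protein complex that assembles in the cytosol when a sensor detects microbial products or signs of cell damage. The sensor recruits the adaptor ASC, the product of Pycard, which gathers and activates caspase-1. Active caspase-1 matures the cytokines interleukin-1 beta and interleukin-18 and cleaves gasdermin D, whose fragment forms membrane pores, and in the brain microglia are the cells best known for this machinery. Transcript levels, which were measured here, do not report on assembly or on cleavage.

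By the coordinates deposited with the counts (GRCm38), the sensors were Nlrp3 (ENSMUSG00000032691, chr11:59541568-59566956, plus strand), Aim2 (ENSMUSG00000037860, chr1:173350879-173466040, plus strand), Nlrc4 (ENSMUSG00000039193, chr17:74425438-74459142, minus strand) and Naip2 (ENSMUSG00000078945, chr13:100144063-100202092, minus strand). Pycard (ENSMUSG00000030793) was at chr7:127989708-127993867 on the minus strand. Casp1 (ENSMUSG00000025888, chr9:5298517-5307265) and Casp4 (ENSMUSG00000033538, chr9:5308828-5336783) were neighbours on the plus strand. Gsdmd (ENSMUSG00000022575) was at chr15:75862327-75867408 and Il18 (ENSMUSG00000039217) at chr9:50554827-50581840, both on the plus strand. In the GENCODE annotation, 485 of the 3800 exon bases of Pycard overlapped exons of Gm45205 on the opposite strand, and the strand setting of the counting was not given in the sources used here, but Gm45205 itself had at most 9 counts in any library. Aim2 lay across Cadm3, and Il18 across Bco2 and Tex12, on the opposite strand with no shared exon base. Naip2 has close copies in the mouse genome, among them Naip5 and Naip6. Reads common to the copies may be miscounted, so that the counts of Naip2 are uncertain to that extent.

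The promoters of 8 of the 9 genes matched an entry in RefSeq sequence (GRCm38.p6), and Gsdmd did not. The 250 bases before the RefSeq start are shown, in the direction of the gene, for 3 genes that rose in the PTS + RS group and for Il18, the gene of the 9 with the smallest difference, with motif matches in capitals. Pycard is at chr7:127993868-127994117, Aim2 at chr1:173420354-173420603, Naip2 at chr13:100202123-100202372 and Il18 at chr9:50554450-50554699. The RefSeq start can differ from the deposited one: for Aim2 it lies inside the deposited gene, and for Naip2 and Il18 outside it. The first bases after the start were found in a GENCODE transcript of the gene for Pycard and Aim2 but not for Naip2 and Il18.
Pycard: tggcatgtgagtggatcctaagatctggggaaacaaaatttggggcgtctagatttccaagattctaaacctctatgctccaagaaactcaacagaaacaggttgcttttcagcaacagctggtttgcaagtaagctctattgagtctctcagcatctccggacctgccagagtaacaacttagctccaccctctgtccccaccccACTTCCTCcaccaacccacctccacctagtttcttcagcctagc
Aim2: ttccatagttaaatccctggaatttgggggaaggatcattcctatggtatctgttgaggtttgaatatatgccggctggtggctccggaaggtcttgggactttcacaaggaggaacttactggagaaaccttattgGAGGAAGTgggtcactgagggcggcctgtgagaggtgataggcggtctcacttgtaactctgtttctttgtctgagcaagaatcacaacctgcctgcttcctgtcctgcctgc
Naip2: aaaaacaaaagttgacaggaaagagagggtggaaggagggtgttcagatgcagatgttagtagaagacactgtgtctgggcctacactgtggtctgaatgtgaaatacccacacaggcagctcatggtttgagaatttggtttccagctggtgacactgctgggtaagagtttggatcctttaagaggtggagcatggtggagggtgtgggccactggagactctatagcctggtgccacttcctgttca
Il18: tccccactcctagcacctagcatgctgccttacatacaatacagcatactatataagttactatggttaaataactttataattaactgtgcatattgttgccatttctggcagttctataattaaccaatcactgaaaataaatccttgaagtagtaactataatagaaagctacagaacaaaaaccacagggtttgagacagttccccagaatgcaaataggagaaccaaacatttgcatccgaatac
Only 1 form of the site of the myeloid factor PU.1 was searched, on both strands, and close forms such as ACTTCCTG in the Naip2 window are not marked. The capitals mark this form, GAGGAAGT. It was found in Pycard, starting 44 bases before the start, and in Aim2, starting 113 bases before it, and in none of the windows of the other 6 genes. The same letters occur in 2.44% of the 32851 RefSeq promoter windows of this length. An AP-1 motif (TGANTCA, in 6.75% of all windows), an interferon response motif (GAAANNGAAA, in 2.98%) and an NF-kB motif (GGGANNTTCC, in 1.21%) had no match in the windows of these 8 genes. Only these letters were searched, so that other forms of the motifs were missed. The Casp4 windows, for example, hold GGGATTTCCC, which is close to the NF-kB letters but outside the search. The absence of a match therefore does not show that a binding site is absent.

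The first comparison asked which genes differ in the cortex between stroke mice under restraint stress and mice under restraint stress alone. Naip2, Pycard, Gsdmd and Aim2 rose in the PTS + RS group, by between 1.49 and 2.4 on the log2 scale. Il18 had a log2 fold change of 0.03, and Casp4, Nlrp3, Casp1 and Nlrc4 had higher means in the PTS + RS group without passing the test. The 4 genes that rose were 4 of 9 (edgeR's quasi-likelihood test, Benjamini-Hochberg adjusted p under 0.05), against 2.96% of the 17581 genes tested that rose, and none of the 9 fell, where 0.586% of the tested genes did. The median log2 fold change of the 9 genes was 1.49, and that of all tested genes was -0.0015. Both PTS + RS libraries lay above both RS libraries in 7 of the 9 genes, where 25.7% of all tested genes did so, and none of the 9 had both below, where 24.5% did. The tissue was bulk, so that a change in the number of cells of one type and a change in RNA per cell cannot be told apart.

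**Figure D1:**
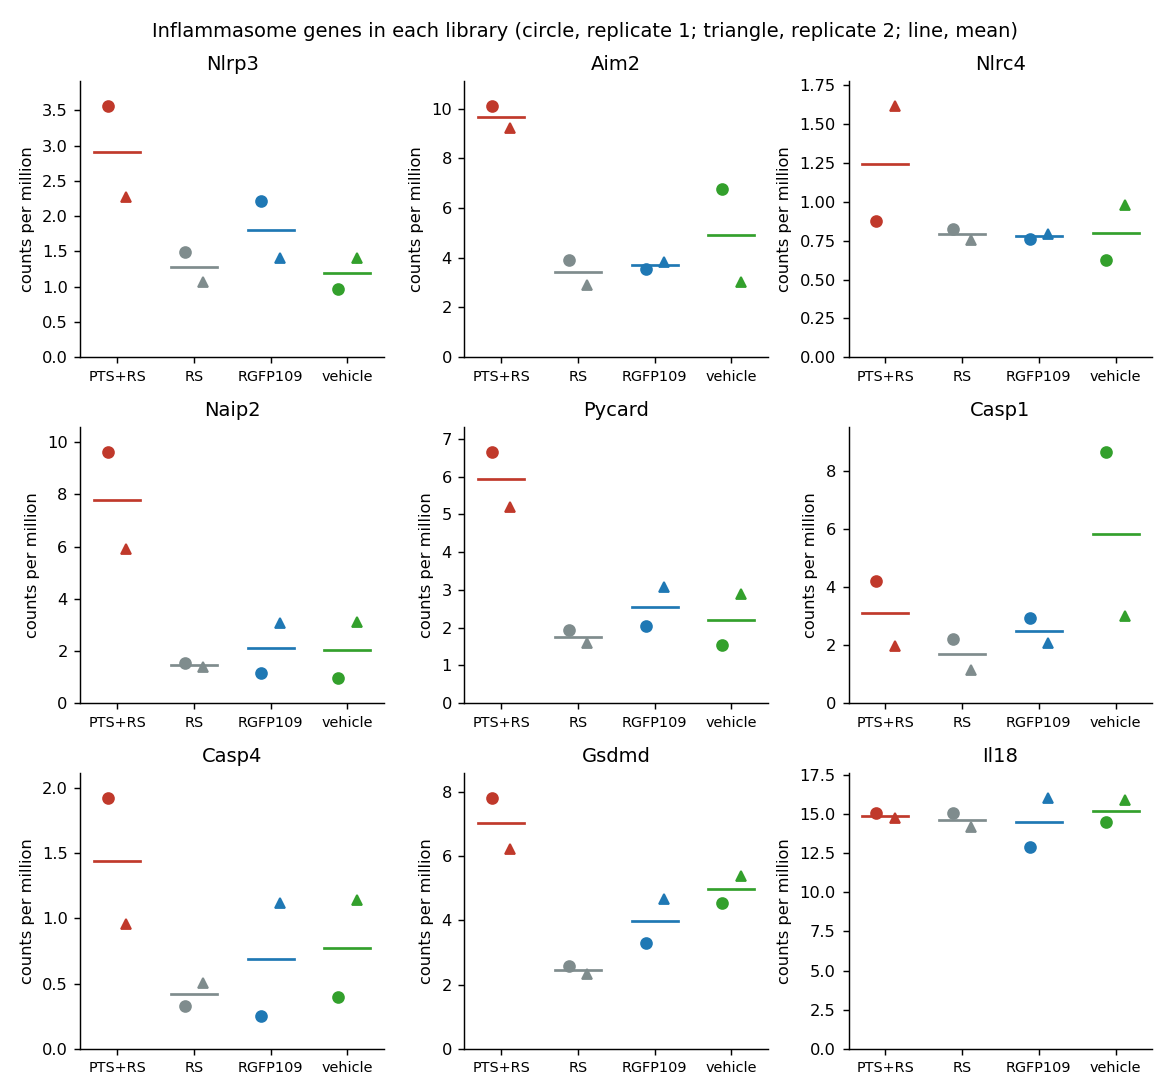
CPM of each gene (vertical axis, from 0) in the 4 groups, with a circle for replicate 1, a triangle for replicate 2 and a line at the mean of the 2 libraries. Naip2, Pycard, Gsdmd and Aim2 were highest in both PTS + RS libraries, Il18 was between 12.9 and 16.0 CPM in all 8 libraries, and Casp1 peaked at 8.65 CPM in vehicle replicate 1.

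Among the sensors, Naip2, which recognises the rod protein of bacterial secretion systems and then joins Nlrc4, was at 9.63 and 5.92 CPM in the PTS + RS libraries and at 1.55 and 1.39 CPM in the RS libraries. The lowest PTS + RS library was well above the highest RS library. Its log2 fold change was 2.4 ± 0.32 (SE, n = 2 per group), with an edgeR adjusted p of 0.0095. Aim2, the sensor of double-stranded DNA in the cytosol, was at 10.1 and 9.22 CPM in the PTS + RS group and at 3.92 and 2.90 CPM in the RS group. The groups did not overlap, and its log2 fold change was 1.49 ± 0.22 (SE, n = 2 per group) with an edgeR adjusted p of 0.015.

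Nlrp3, the sensor that responds to potassium efflux and many kinds of cell damage, was at 3.56 and 2.27 CPM in the PTS + RS libraries and at 1.49 and 1.07 CPM in the RS libraries. The libraries of the groups did not overlap, but the log2 fold change of 1.18 ± 0.37 (SE, n = 2 per group) did not pass the test (edgeR adjusted p = 0.16). Its 95% interval ran from 0.30 to 2.05 before adjustment over genes. Nlrc4, which builds its inflammasome on Naip proteins, was among the lowest of the 9 genes, at 0.876 and 1.62 CPM in the PTS + RS group and 0.828 and 0.757 CPM in the RS group. PTS + RS replicate 1 was next to the RS libraries, and the log2 fold change of 0.64 ± 0.47 (SE, n = 2 per group) was within the spread (edgeR adjusted p = 0.53).

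Pycard, which encodes the adaptor ASC that links sensors to caspase-1, was at 6.65 and 5.21 CPM in the PTS + RS libraries and at 1.93 and 1.58 CPM in the RS libraries. There was no overlap between the groups. The log2 fold change was 1.75 ± 0.27 (SE, n = 2 per group), with an edgeR adjusted p of 0.018.

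Casp1, which encodes the protease at the centre of the complex, was at 4.2 and 1.97 CPM in the PTS + RS libraries and at 2.21 and 1.14 CPM in the RS libraries. PTS + RS replicate 2 was below RS replicate 1, so that the groups overlapped. The log2 fold change of 0.87 ± 0.47 (SE, n = 2 per group) did not pass the test (edgeR adjusted p = 0.39), and its 95% interval, from -0.24 to 1.99, spanned 0. Casp4, which encodes the mouse caspase-11 that binds bacterial lipopolysaccharide directly, had 33 and 16 counts in the PTS + RS libraries against 6 and 8 in the RS libraries. No library of one group reached the other, and the log2 fold change of 1.78 ± 0.55 (SE, n = 2 per group) did not pass the test at these counts (edgeR adjusted p = 0.15).

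Of the downstream genes, Gsdmd, which encodes the pore-forming substrate of both caspases, was at 7.82 and 6.22 CPM in the PTS + RS libraries and at 2.59 and 2.33 CPM in the RS libraries. All values of the PTS + RS group were above those of the RS group, with a log2 fold change of 1.51 ± 0.24 (SE, n = 2 per group) and an edgeR adjusted p of 0.020. Il18, which encodes a cytokine matured by caspase-1, was at 15.1 and 14.7 CPM in the PTS + RS libraries and at 15.1 and 14.1 CPM in the RS libraries. The groups overlapped, and the log2 fold change was 0.03 ± 0.13 (SE, n = 2 per group; edgeR adjusted p = 0.94), with a 95% interval from -0.29 to 0.35. This interval is the narrowest of the 9, and it leaves out a change of the size seen for Pycard, Gsdmd, Aim2 or Naip2.

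**Figure D2:**
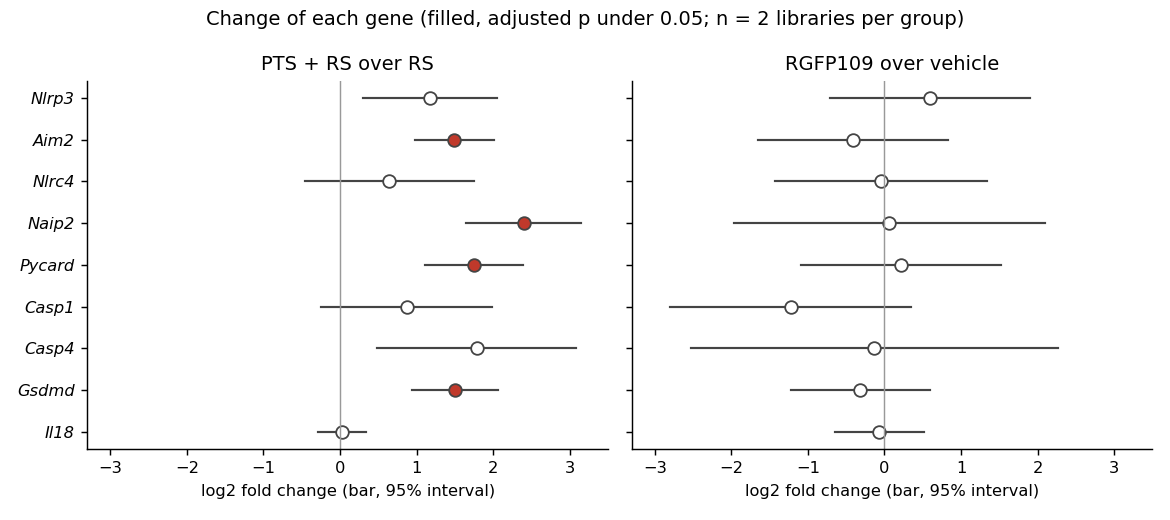
Log2 fold change of each gene (horizontal axis) with its 95% interval, for PTS + RS over RS and for RGFP109 over vehicle, with filled circles for an adjusted p under 0.05 (n = 2 libraries per group). Naip2 (2.4), Pycard (1.75), Gsdmd (1.51) and Aim2 (1.49) are filled on the left, and no gene is filled on the right.

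Of these 4 calls, those of Pycard (adjusted p = 0.054) and Gsdmd (adjusted p = 0.069) were lost without RS replicate 2, and none was lost without any other single library. In 1 fit of all 8 libraries, where the larger spread of the RGFP109 and vehicle libraries was shared, the log2 fold changes of the 4 genes ran from 1.48 to 2.38 but none passed, with edgeR adjusted p-values from 0.184 to 0.319. Casp4 and Nlrp3 passed without the filter on low counts (adjusted p = 0.021 and 0.023) and without PTS + RS replicate 2 (adjusted p = 0.031 and 0.032).

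Because levels between genes can be set side by side only per length, the deposited FPKM values were used to order the genes. Il18 was the highest of the 9 in every library, at 12.5 to 15.6 FPKM, well clear of the next gene. Casp1 (0.756 to 5.71 FPKM), Gsdmd (0.978 to 3.26 FPKM) and Aim2 (0.826 to 2.86 FPKM) followed, and their ranges over the 8 libraries overlapped. Pycard (0.399 to 1.73 FPKM), Naip2 (0.197 to 1.97 FPKM) and Nlrp3 (0.236 to 0.869 FPKM) came next. Their ranges overlapped each other and also those of Casp1 and Aim2, and in PTS + RS replicate 2 Pycard was above Casp1. Nlrc4 (0.131 to 0.340 FPKM) and Casp4 (0.0683 to 0.514 FPKM) held the last places in all 8 libraries. The gene with the highest level was thus the one with the smallest difference between the PTS + RS and RS groups.

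Markers of microglia, the resident macrophages of the brain, also rose in the PTS + RS group. All 15 microglial markers rose, with a median log2 fold change of 1.79, and their sum was 1762 and 1524 CPM in the PTS + RS libraries against 434 and 389 CPM in the RS libraries. Of 6 tested markers of border macrophages 1 rose, and their sum went from 39.6 and 35.3 CPM in the RS group to 163 and 118 CPM. Of 8 astrocyte markers 4 rose, and no marker of neurons (10 tested), oligodendrocytes (8) or endothelial cells (8) was called. Blood leukocyte markers were near the detection limit, with sums of at most 0.993 CPM for neutrophils, where Ly6g, Elane and Retnlg had no count, and 2.04 and 1.97 CPM for monocytes in the PTS + RS group against 0.497 and 0.252 CPM in the RS group. The part of these cell markers in the values of the inflammasome genes was not tested.

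Set against the summed counts of the 15 microglial markers in the same library, the inflammasome genes differed in direction. The marker sum itself was higher in the PTS + RS group by 2.00 on the log2 scale. Every gene is shifted down by that amount, so that the order of the genes on this scale is that of their own differences. Naip2 had 5.47 and 3.89 counts per 1000 microglial marker counts in the PTS + RS libraries and 3.56 and 3.57 in the RS libraries, a log2 difference of 0.37 with an SD within groups of 0.25. Pycard, with 3.78 and 3.42 against 4.46 and 4.05, and Gsdmd, with 4.44 and 4.08 against 5.98 and 6.00, were lower per microglial marker count in the PTS + RS group, by log2 differences of -0.24 and -0.49. Aim2 (-0.48), Nlrp3 (-0.83), Casp1 (-1.13) and Nlrc4 (-1.41) were also lower on this scale.

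Il18 had 8.55 and 9.66 counts per 1000 microglial marker counts in the PTS + RS libraries against 34.8 and 36.3 in the RS libraries, a log2 difference of -1.97. This was the largest difference of the 9 on this scale, while the log2 fold change of Il18 itself was 0.03. The cells that held the Il18 transcripts were not determined. Casp4 overlapped between the groups on this scale (1.09 and 0.628 against 0.764 and 1.30). The scale depends on the markers chosen: without the 3 complement genes C1qa, C1qb and C1qc the differences were 0.65 for Naip2, 0.04 for Pycard, which turned sign, -0.21 for Gsdmd and -0.20 for Aim2. These ratios are a description and were not tested.

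**Figure D3:**
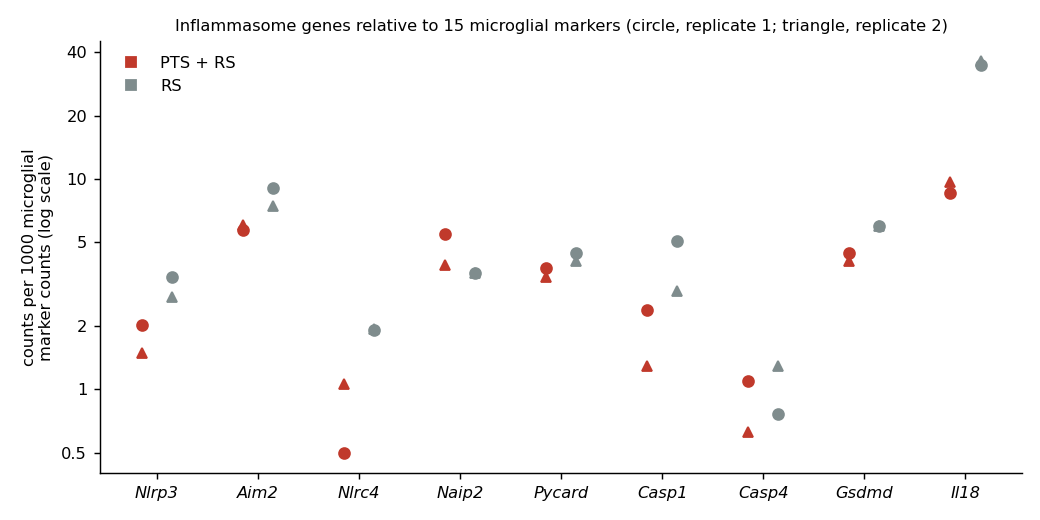
Counts of each gene per 1000 counts of 15 microglial markers in the same library (vertical axis, log scale), in the PTS + RS (red) and RS (grey) groups, with a circle for replicate 1 and a triangle for replicate 2. The Il18 ratio is 34.8 and 36.3 in the RS group and 8.55 and 9.66 in the PTS + RS group, where the marker sum is higher and Il18 CPM is not. Naip2 is the only gene with both PTS + RS libraries above both RS libraries.

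The rest of the pathway was followed in 4 lists of other genes. For the counts below, 2.96% of all 17581 tested genes rose and 0.586% fell, with a median log2 fold change of -0.0015. Of the other inflammasome sensors, 11 of 12 were listed and 5 tested, 2 rose and none fell, with a median log2 fold change of 2.03. Ifi204, a DNA-binding protein of the interferon-inducible family to which Aim2 belongs, had 131 and 76 counts in the PTS + RS libraries against 2 and 3 in the RS libraries. The ratio was 41.6 (95% interval from 17.5 to 129 for counting error), with an edgeR adjusted p of 0.0027. This gene too has close copies, and reads common to them may be miscounted. Naip5, a sensor of bacterial flagellin, was at 9.69 and 4.91 CPM against 1.49 and 1.07 CPM (log2 fold change 2.50 ± 0.40, edgeR adjusted p = 0.021). Like Naip2, it was higher in PTS + RS replicate 1 than in replicate 2.

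Of the genes that prime or trigger the complex 7 of 22 tested rose and none fell, with a median log2 fold change of 0.63. Tlr2, a receptor for bacterial lipoproteins upstream of NF-kB, was at 17.5 and 13.5 CPM in the PTS + RS group against 1.49 and 1.26 CPM in the RS group (log2 fold change 3.48 ± 0.24, edgeR adjusted p = 7.6e-04). Irf8, a transcription factor of microglia and other myeloid cells, was at 29.8 and 26.9 CPM against 5.13 and 6.94 CPM (log2 fold change 2.23 ± 0.18, edgeR adjusted p = 0.0014). Both genes were separated between the groups by a wide gap.

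Kcnk6, which encodes a potassium channel, rose by 1.74 ± 0.21 on the log2 scale (edgeR adjusted p = 0.0068), from 3.59 and 3.41 CPM in the RS libraries to 13.2 and 10.2 CPM. Zbp1, a sensor of Z-form nucleic acids, was at 5.37 and 2.57 CPM against 0.331 and 0.442 CPM (log2 fold change 3.35 ± 0.51, edgeR adjusted p = 0.017). The calls of Zbp1 (adjusted p = 0.057) and Naip5 (adjusted p = 0.060) were lost with limma-voom. P2rx7, the ATP-gated channel that triggers Nlrp3, was at 21.5 and 19.0 CPM against 12.7 and 13.8 CPM and did not pass the test (log2 fold change 0.61 ± 0.14, edgeR adjusted p = 0.065). Nek7, the kinase that binds Nlrp3 during assembly, was at 66.3 and 52.8 CPM against 51.0 and 47.3 CPM, a difference within the spread of the PTS + RS libraries (edgeR adjusted p = 0.30).

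Among effectors and cytokine receptors 1 of 12 tested genes rose and none fell, with a median log2 fold change of 0.29. That gene was Il1rn, which encodes the interleukin-1 receptor antagonist, with 22 and 13 counts in the PTS + RS libraries against 1 and 0 in the RS libraries. The ratio was 35.1 (95% interval from 5.91 to 1427 for counting error; edgeR adjusted p = 0.040), and the call was lost with DESeq2 (adjusted p = 0.067) and when either RS library was left out (adjusted p = 0.11 and 0.22). Il1b, the main cytokine product of the pathway, had 3 and 4 counts in the PTS + RS libraries and 9 and 4 in the RS libraries. It was too low to be tested. Il18bp, a secreted decoy that binds interleukin-18, was at 11.4 CPM in both PTS + RS libraries and 9.71 and 8.33 CPM in the RS libraries (log2 fold change 0.34 ± 0.16, edgeR adjusted p = 0.34).

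Of the inhibitors, 10 of 12 were listed and tested, 2 rose and none fell, with a median log2 fold change of 0.23. Trim30a, which restrains NF-kB signalling and Nlrp3, was at 15.9 and 12.99 CPM against 2.76 and 2.84 CPM (log2 fold change 2.37 ± 0.20, edgeR adjusted p = 0.0015). Sirt2, a deacetylase that acts on the Nlrp3 protein and is abundant in oligodendrocytes, rose by 0.48 ± 0.07 on the log2 scale (edgeR adjusted p = 0.014), from 145 and 143 CPM to 203 and 200 CPM. The call of Sirt2 was lost without either RS library (adjusted p = 0.16 and 0.20).

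**Figure D4:**
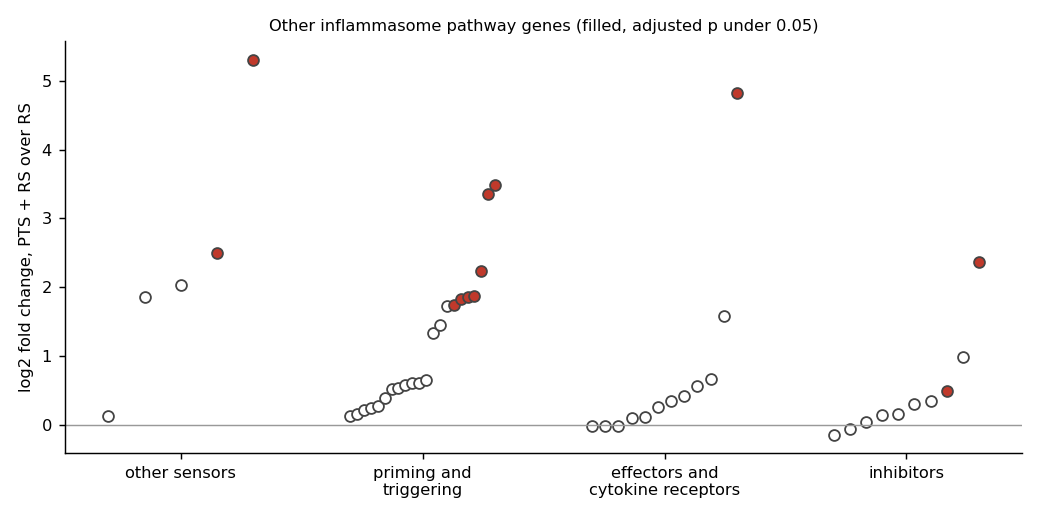
Log2 fold change of PTS + RS over RS (vertical axis) for each tested gene of the 4 lists, ordered by value within a list, with filled circles for an adjusted p under 0.05. The lists have 2 of 5, 7 of 22, 1 of 12 and 2 of 10 genes filled, all above 0.

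The second comparison asked what RGFP109 changed in PTS + RS mice. None of the 9 inflammasome genes was called in either direction, as was the case for all 17565 tested genes (0.0% called higher and 0.0% called lower). At an unadjusted p under 0.05, 88 genes were higher and 118 lower, and none of these was an inflammasome gene. DESeq2 and limma-voom also called 0 genes. The variation between libraries was large, with a common biological coefficient of variation of 32.1%, against 11.4% for the PTS + RS and RS libraries, so that the intervals were wide and the values below do not show that the genes were unaltered.

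Casp1 had the largest difference, with 2.92 and 2.06 CPM in the RGFP109 libraries against 8.65 and 2.99 CPM in the vehicle libraries. It was the 1 gene of the 9 whose groups did not overlap, with both RGFP109 libraries below both vehicle libraries, as in 13.8% of all tested genes, and no gene of the 9 had both above, as 12.8% did. Its log2 fold change was -1.23 ± 0.61 (SE, n = 2 per group; edgeR adjusted p = 0.9997, the value of every one of the 9), with a 95% interval from -2.80 to 0.35. Vehicle replicate 1, with the high value, is the library with the olfactory bulb markers, and without it the log2 fold change of Casp1 was -0.28.

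Aim2 was likewise highest in that library, at 6.77 CPM, against 3.04 CPM in vehicle replicate 2 and 3.55 and 3.83 CPM in the RGFP109 libraries. The log2 fold change was -0.41 ± 0.48 (SE, n = 2 per group), and it turned to 0.27 without vehicle replicate 1. Nlrp3 was at 2.22 and 1.402 CPM in the RGFP109 libraries and 0.967 and 1.41 CPM in the vehicle libraries. The groups overlapped, with a log2 fold change of 0.60 ± 0.50 (SE, n = 2 per group) and a 95% interval from -0.71 to 1.90.

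Naip2 differed little between RGFP109 and vehicle but strongly between replicate numbers. It was at 1.14 and 3.08 CPM in RGFP109 replicates 1 and 2 and at 0.967 and 3.10 CPM in vehicle replicates 1 and 2. The replicate 2 libraries, labelled amygdala, were thus higher in both groups, by 1.55 on the log2 scale over the mean of both, while the RGFP109 log2 fold change was 0.06 ± 0.78 (SE, n = 2 per group). Casp4 showed the same order, with 0.254 and 1.12 CPM in the RGFP109 libraries and 0.398 and 1.14 CPM in the vehicle libraries. So did Pycard, with 2.03 and 3.08 CPM against 1.54 and 2.88 CPM.

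Both replicate 2 libraries were above both replicate 1 libraries in 6 of the 9 genes, namely Pycard, Casp4, Il18, Gsdmd, Nlrc4 and Naip2, where 21.6% of all tested genes showed this order, and in none of the 9 was the order the reverse, as in 22.4%. Summed microglial markers followed the same order, at 704 and 769 CPM in the replicate 2 libraries against 502 and 587 CPM in the replicate 1 libraries. This depended on the complement genes C1qa, C1qb and C1qc. Without them, RGFP109 replicates 1 and 2 were at 388 and 455 CPM and vehicle replicates 1 and 2 at 495 and 433 CPM. The vehicle group then had the reverse order. The sum over 8 markers of T and B lymphocytes was also higher in the replicate 2 libraries, at 13.4 and 12.02 CPM against 1.46 and 0.683 CPM. Only 1 of these 8 markers passed the filter on low counts, so that the sums do not show a rise of the whole list. Replicate number and tissue label coincide in these libraries and cannot be told apart.

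**Figure D5:**
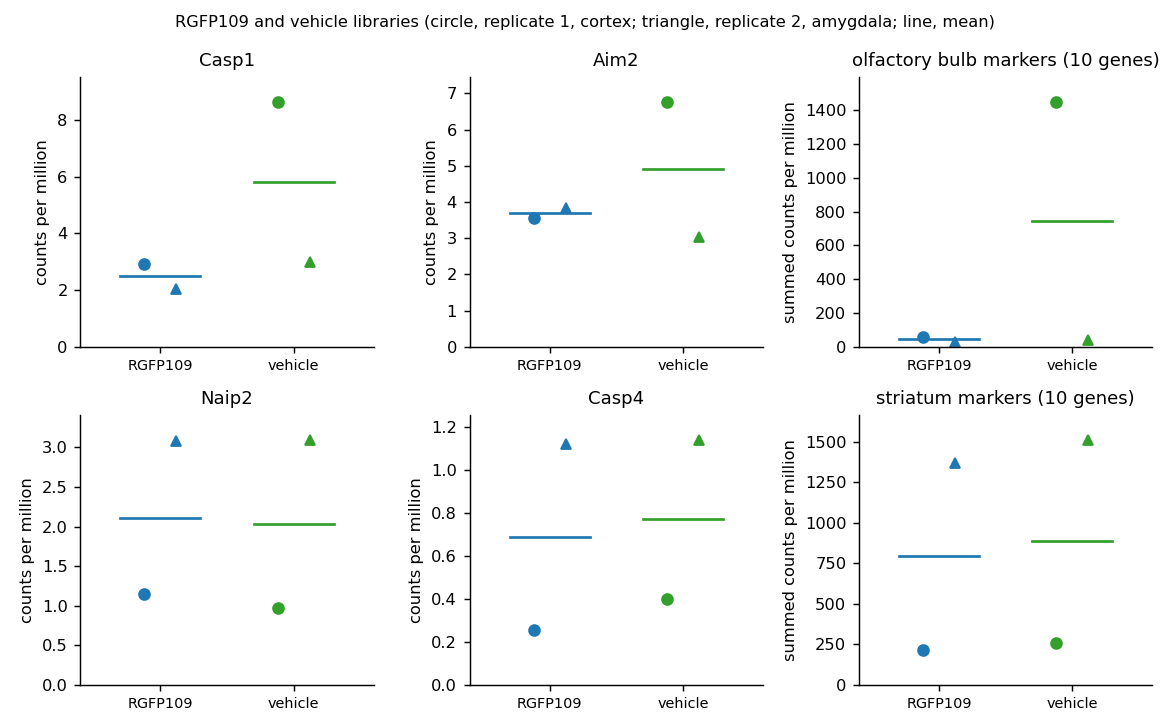
CPM of Casp1, Aim2, Naip2 and Casp4, and summed CPM of 10 olfactory bulb and 10 striatum markers (vertical axes, from 0), in the RGFP109 and vehicle libraries, with a circle for replicate 1 (cortex label), a triangle for replicate 2 (amygdala label) and a line at the mean. Casp1 (8.65 CPM) and Aim2 (6.77 CPM) peak in vehicle replicate 1 with the olfactory bulb markers (1452 CPM), and Naip2 and Casp4 are higher in both triangles, as are the striatum markers (1373 and 1514 CPM).

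Gsdmd was at 3.30 and 4.67 CPM with RGFP109 and at 4.55 and 5.38 CPM with vehicle, a log2 fold change of -0.31 ± 0.35 (SE, n = 2 per group). Il18 was at 12.9 and 16.0 CPM with RGFP109 and at 14.5 and 15.9 CPM with vehicle, and its 95% interval, from -0.65 to 0.51, was again the narrowest of the 9. Nlrc4 was at 0.761 and 0.795 CPM against 0.626 and 0.979 CPM. In each of these 3 genes the libraries of the groups overlapped.

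No gene of the 4 pathway lists was called in the RGFP109 comparison, and the medians of the lists ran from -0.15 for effectors and cytokine receptors to 0.45 for the other sensors. Il1b had 0 and 3 counts in the RGFP109 libraries and 0 and 12 counts in the vehicle libraries, where replicate 2 held all counts in both groups. P2rx7 was at 14.3 and 10.3 CPM against 17.1 and 12.2 CPM, Nek7 at 49.2 and 53.7 CPM against 50.4 and 55.5 CPM, Il18bp at 9.32 and 8.83 CPM against 10.1 and 11.7 CPM, and Irf8 at 5.26 and 12.1 CPM against 5.40 and 12.9 CPM. Irf8 thus had the replicate order of Naip2, and in Il18bp both RGFP109 libraries were below both vehicle libraries without passing the test (log2 fold change -0.26 ± 0.24).

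Over all 8 libraries, the 5 genes whose centred log2 CPM came closest to the mean profile of the 9 inflammasome genes, out of 16903 other genes tested in both tables, were Pros1, Hexa, Msn, Ctsl and Arhgdib. Their root-mean-square differences from that profile were 0.068, 0.110, 0.121, 0.128 and 0.128 on the log2 scale, over 8 libraries. Single inflammasome genes lay farther from their own mean, from 0.19 for Gsdmd to 0.79 for Casp1, so that the mean profile describes Gsdmd and Pycard (0.29) better than Casp1 or Naip2 (0.65). In the mean profile, the PTS + RS libraries were at 0.87 and 0.52, the RS libraries at -0.38 and -0.60, the RGFP109 libraries at -0.36 and 0.04 and the vehicle libraries at -0.19 and 0.09. The tables of the PTS + RS and of the RGFP109 comparison hold different libraries, and the labels do not say whether these were prepared together, so that levels across them are set side by side without a test.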

How the data were processed

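RNA-seq was measured in 8 libraries of mouse brain, 2 per group. Per the methods of the study and the submitters' processing notes, reads were aligned to GRCm38 with STAR 2.4.0, and the authors deposited raw read counts per gene from HTSeq 0.6.1 together with FPKM values. The deposited FPKM equal the count divided by gene length and by 1 factor per library. The labels name a directional library kit and the methods another kit; the strand setting of counting is not given in the sources used here. The deposited normalized signal (8 per-library columns) was not used, nor were the authors' fold changes, p-values and adjusted p-values.

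Genes were matched by symbol. Counts were filtered with filterByExpr, scaled by TMM and compared with the edgeR quasi-likelihood test (R 4.3.3, edgeR 4.0.16), with Benjamini-Hochberg adjustment over all tested genes in each table and a threshold of 0.05. Intervals are at 95%, before adjustment. DESeq2 1.42.0, limma-voom (limma 3.58.1), other size factors, no filter, a replicate block, 1 fit of all 8 libraries and leaving out each library were alternatives. CPM are counts per 1000000 of the TMM-scaled library size. Log2 ratios of single libraries used a prior of 2 counts. The test was checked on simulated counts, with changes placed only in genes above a count limit. Recovery of changes was thus not checked at counts as low as those of Casp4 and Nlrc4. Figures were drawn with Python 3.11.15 and matplotlib 3.10.9.

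Of the pathway lists, up to 4 called genes with the smallest p were named per comparison, with Il1b, P2rx7, Nek7, Il18bp and Irf8 in any case. The 9 genes, the gene lists and the markers were chosen with earlier results of these data known. Totals of 15902013 to 21712033 counts left 4 to 343 counts on an inflammasome gene in a library; counting intervals cover counting error only. Same-numbered libraries share a tissue label in the RGFP109 and vehicle groups (cortex for replicate 1, amygdala for replicate 2); no label ties them to the same animal.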

Additional observations from a re-analysis of the deposited data

Results flagged for a closer look

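The difference between RGFP109 and vehicle had opposite signs in replicate 1 (cortex label) and replicate 2 (amygdala label) for Nlrp3, Aim2, Nlrc4, Naip2 and Il18. With 1 library per arm, these differences were not tested. How often all tested genes showed opposite signs was not counted. For Nlrp3, Naip2 and Il18 the replicate 2 value was close to 0, so that its sign carries little weight. Nlrp3 was higher with RGFP109 by 1.12 on the log2 scale in replicate 1 and at -0.03 in replicate 2, a difference of 1.14. Aim2 was at -0.90 in replicate 1 and at 0.32 in replicate 2, a difference of -1.22, and vehicle replicate 1 is the library with the olfactory bulb markers. For Nlrc4 (0.26 and -0.29, a difference of 0.56), Naip2 (0.23 and -0.01, a difference of 0.24) and Il18 (-0.17 and 0.01, a difference of -0.18) the values were smaller.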

How the results depend on the processing

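In PTS + RS against RS, 624 genes were called (521 higher, 103 lower), and between 371 and 2691 when 1 library was left out, the highest without PTS + RS replicate 2 and the lowest without RS replicate 2. Without the filter 1835 were called (1119 higher, 716 lower). In 1 fit of all 8 libraries 0 were called (946 higher and 493 lower at an unadjusted p under 0.05), with 0 inflammasome genes and 0 in each of the 4 pathway lists. With the replicate block 915 were called (687 higher, 228 lower) and the same 4 inflammasome genes; same-numbered libraries had a deviation correlation of 0.035 and shared only a number. In the RGFP109 and vehicle libraries the correlation was 0.299 and the number coincides with the tissue label, so the replicate block there also stands for that label; it called 0 genes (96 higher and 164 lower at an unadjusted p under 0.05). Of the 9 inflammasome genes, 4 were called, and 2 to 6 when 1 library was left out (2 without RS replicate 2; 6, with Nlrp3 and Casp4, without PTS + RS replicate 2). Leaving out 1 library gave 2 to 4 other sensors, 6 to 16 priming genes, 0 to 2 effectors and 1 to 2 inhibitors called higher. Without the filter, 4 other sensors, 14 priming genes and 2 effectors were called, limma-voom called 1 sensor and 4 priming genes, and the replicate block called 2 effectors. Without the complement genes, the microglial sum differed by 1.72 and the differences per microglial marker count were -0.55 for Nlrp3, 0.036 for Pycard, -1.69 for Il18, -0.21 for Gsdmd, -0.20 for Aim2 and 0.65 for Naip2. Il18 ran from -0.022 (without RS replicate 2) to 0.069. In RGFP109 against vehicle, 0 genes were called except without NaCl replicate 2 (93 genes, 15 higher and 78 lower, no inflammasome gene; 0 to 93 over the libraries left out). With 1 library left out, signs turned for Pycard (-0.17 to 0.75), Casp4 (-1.58 to 0.82), Il18 (-0.24 to 0.080), Aim2 (-0.86 to 0.27), Nlrc4 (-0.33 to 0.32), Naip2 (-0.83 to 1.15), Nek7 (-0.12 to 0.039) and Irf8 (-0.80 to 0.70). In these fits the lone library is assumed to vary like the other group. The causes of these changes were not tested, other than the fewer samples and genes that a setting itself brings. Counts of 4 to 343 per gene and 2 libraries per group limit what could be detected.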
